A study of Homo sapiens with 14 samples.

Results

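FLI1 and H3K27ac were compared at the starts of protein-coding genes in TC-32, an established Ewing sarcoma cell line that carries the EWSR1::FLI1 fusion. Of the 14 CUT&RUN libraries in the study, the comparison used 4, all from set A: FLI1 replicates 1 and 2 and H3K27ac replicates 1 and 2. All cells were untreated TC-32 of 1 line, and the labels call every library WT. The FLI1 antibody is listed as Abcam ab15289 and the H3K27ac antibody as Abcam ab4729. FLI1 and H3K27ac lists of the same number were called against the same IgG library, so they are not independent of each other. The FLI1 lists of set B, with IgG libraries of their own, serve as a second measurement of FLI1. The labels do not say what the letters A and B stand for, or whether replicates came from separate cultures. Every one of the 19970 protein-coding gene starts on the autosomes and X was examined, within 1 kb either side (hg38, GENCODE release 44). A start counted as having FLI1 or H3K27ac when a peak of both replicate lists touched that window.

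EWSR1::FLI1 joins the activation domain of EWSR1 to the DNA-binding domain of FLI1, a transcription factor of the ETS family. ETS factors bind DNA around the core GGAA, and EWSR1::FLI1 is also known to bind runs of GGAA repeats far from genes. H3K27ac, acetylation of lysine 27 of histone H3, is placed by EP300 and CREBBP and marks active promoters and enhancers. At an active promoter the acetylated nucleosomes flank a stretch of open DNA where factors bind. The antibody is labelled only as FLI1, and the lists do not separate the fusion from any other protein it binds.

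FLI1 was far more widespread at starts than H3K27ac. Replicates 1 and 2 of FLI1 had a peak at 8136 and 8061 starts, and 7296 starts had it in both, which is 36.5% of all starts and 82.0% of those with it in either. H3K27ac had a peak at 2926 and 3924 starts, and 2256 had it in both, which is 11.3% of all starts but only 49.1% of those with it in either. The H3K27ac lists were thus the shorter and the less repeatable of the pair of antibodies. They held 10219 and 17366 regions, against 35210 and 40590 for FLI1. The highest deposited folds over IgG were 11.4 and 26.5 for H3K27ac and 347 and 402 for FLI1, from libraries whose depth is unknown here. A missing H3K27ac peak means that none was called at this signal, not that the histone was unacetylated.

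Both together were found at 1700 starts, 8.51% of all. FLI1 without H3K27ac in both lists was found at 5596 starts. Of these, 1687 had H3K27ac in 1 of its lists and 3909 had it in 0, the latter being 19.6% of all starts. H3K27ac without FLI1 in both lists was found at 556 starts. FLI1 was present in 1 list at 280 of them and in 0 lists at 276, which is 1.38% of all starts. The remaining 12118 starts had neither, and 10425 of those had no peak in any of the 4 lists.

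Printed below are 4 stretches of DNA upstream of gene starts in the hg38 genome, as examples of an ETS motif beside a FLI1 summit. Each ends 10 bases beyond the FLI1 summit of replicate 1 on one side and 10 bases beyond the motif on the other. The motif is written CCGGAAGT, or ACTTCCGG on the other strand, and is in capitals. The first pair is from starts with both FLI1 and H3K27ac and the second pair from starts with FLI1 alone. They ranked highest in their class by FLI1 percentile alone, among starts with 1 motif in the FLI1 peak and no annotated exon in the stretch. The motif had to lie at least 50 bp from the summit, so the distances are examples and not a measure of spacing. All are printed 5′ to 3′ on the strand of the gene.
GGA1 (chr22:37608462-37608620, + strand): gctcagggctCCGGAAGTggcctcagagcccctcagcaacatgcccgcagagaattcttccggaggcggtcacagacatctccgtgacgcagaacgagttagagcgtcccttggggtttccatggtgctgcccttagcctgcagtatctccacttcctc
ARHGAP35 (chr19:46859864-46860034, + strand): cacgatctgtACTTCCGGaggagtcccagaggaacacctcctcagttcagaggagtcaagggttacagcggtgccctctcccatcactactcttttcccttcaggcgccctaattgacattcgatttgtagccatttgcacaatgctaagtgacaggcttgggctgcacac
P4HB (chr17:81861067-81861194, - strand): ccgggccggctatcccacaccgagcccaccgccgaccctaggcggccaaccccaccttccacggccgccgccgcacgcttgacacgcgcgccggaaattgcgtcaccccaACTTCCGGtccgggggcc
RPS19 (chr19:41859822-41859963, + strand): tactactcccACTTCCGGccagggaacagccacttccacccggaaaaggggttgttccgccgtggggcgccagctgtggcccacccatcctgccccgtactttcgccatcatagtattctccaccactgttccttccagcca
The FLI1 summit of replicate 1 is base 149 of the GGA1 stretch, base 161 of ARHGAP35, base 11 of P4HB and base 132 of RPS19. It therefore lay 135, 147, 104 and 118 bp from the motif. From the start of the gene it lay at -115, -973, -328 and -302 bp in the same order. The ARHGAP35 motif is farther upstream than its summit and lies outside the 1-kb window. GGA1 encodes a Golgi sorting adaptor, ARHGAP35 a GTPase-activating protein, P4HB protein disulfide isomerase and RPS19 a protein of the small ribosomal subunit. Deposited FLI1 folds in replicates 1 and 2 were 101 and 104 at GGA1, 73.1 and 55.9 at ARHGAP35, 136 and 209 at P4HB and 124 and 103 at RPS19. At GGA1 the nearest H3K27ac summit lay 864 and 805 bp downstream of the FLI1 summit in replicates 1 and 2, and its fold was 5.34 and 5.99.

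A second set shows windows at a start with FLI1 alone and at 2 starts with H3K27ac alone. ISY1 encodes a splicing factor. Its stretch is 30 bases either side of the FLI1 summit of replicate 1, which lies 166 bp upstream of the start. BTN2A1 encodes a butyrophilin and ZNF746 a zinc finger protein. Theirs are the 60 bases before the start. Capitals mark every GGAA or TTCC.
ISY1 (chr3:129161199-129161259, - strand): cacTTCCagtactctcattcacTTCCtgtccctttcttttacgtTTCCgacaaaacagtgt
BTN2A1 (chr6:26457844-26457903, + strand): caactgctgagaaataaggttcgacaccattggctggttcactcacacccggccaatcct
ZNF746 (chr7:149497818-149497877, - strand): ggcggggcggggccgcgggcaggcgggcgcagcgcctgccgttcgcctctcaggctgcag
These windows have 3 cores at ISY1, the most among the 8 windows of its class, and 0 at BTN2A1 and ZNF746, where the class also had windows with cores. Of the windows of the 8 highest-ranked starts of each class, 5 of 8 had a core with both, 2 of 8 with FLI1 and H3K27ac in 0 lists and 5 of 8 with H3K27ac and FLI1 in 0 lists. Cores of 4 letters are frequent by length alone: 94.9% of all starts had one between 250 bases before and 50 bases after the start, and 94.9% of starts with H3K27ac and FLI1 in 0 lists did too. By class it was at 98.1% of starts with both, 95.4% with FLI1 only, 95.5% with H3K27ac only and 94.2% with neither. A core that nearly every start holds leaves little room for classes to differ, so the 8-base motif is used below.

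H3K27ac was found at 23.3% of FLI1 starts and at 4.39% of all other starts, a ratio of 5.31. Each FLI1 list taken with each H3K27ac list gave 29.2%, 38.7%, 29.0% and 39.1% of FLI1 starts, against 4.64%, 6.58%, 4.91% and 6.47% of starts without FLI1. The 4 pairs thus differed mainly by which H3K27ac list was used. With FLI1 in both lists and H3K27ac taken from replicate 2 alone, the shares were 39.8% and 8.06%, with 2903 starts that had both and 1021 with H3K27ac only. Pairs with crossed numbers, which do not share an IgG library, gave 38.7% and 29.0%, and the matched pairs gave 29.2% and 39.1%. Set B FLI1 gave 26.7%, 35.7%, 27.4% and 36.7%, against 2.80% to 4.97% of starts without it. In the other direction, 80.0% to 81.2% of the starts in an H3K27ac list were in a set A FLI1 list, and 86.4% to 90.4% were in a set B list. These shares came from FLI1 lists that were longer than the H3K27ac lists. With the 10219 most significant regions of each set A list, 719 starts had both and 1094 had H3K27ac only. With the full lists these were 1700 and 556. No test of these shares was run, because 2 lists against 2 cannot give an exact permutation p below 0.333 and genes are not replicates.

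The more FLI1 lists had a peak at a start, the more often H3K27ac was there. Among 9175 starts with FLI1 in 0 of the 4 lists of sets A and B, only 90 had H3K27ac in both lists, which is 0.981%. The share was 9.55% with FLI1 in 1 list, 12.4% in 2, 18.5% in 3 and 23.9% in all 4. Starts with FLI1 in both lists of one set and neither of the other gave 10.6% (set B only, 1109 starts) and 10.1% (set A only, 217 starts).

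**Figure D1:**
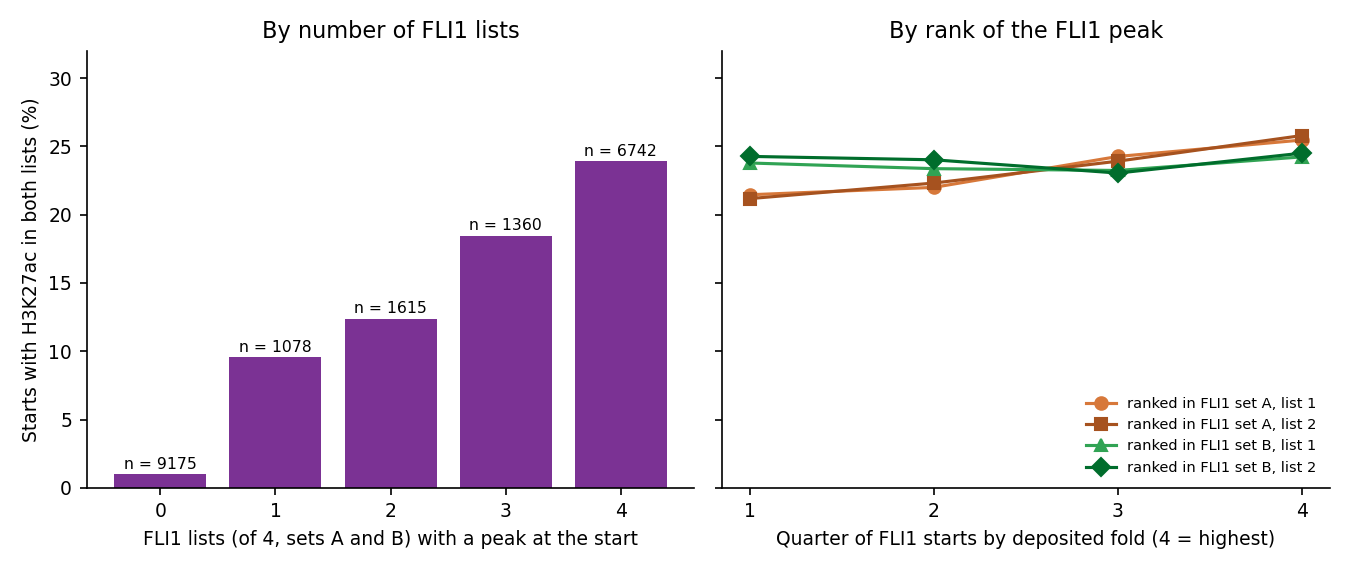
Percent of gene starts with H3K27ac in both lists (vertical axes), by the number of FLI1 lists with a peak there (left, n = number of starts) and by the rank of the strongest FLI1 peak among starts with FLI1 in both set A lists, in 4 equal groups by deposited fold (right, 1 line per FLI1 list). The bars rise from 0.981% to 23.9%, while the lines stay between 21.2% and 25.8%.

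The strength of the FLI1 peak, in contrast to its presence, went with little change in H3K27ac. FLI1 starts were put in 4 equal groups by the deposited fold of their strongest peak. From the lowest to the highest group, H3K27ac was at 21.5%, 22%, 24.3% and 25.5% when ranked in replicate 1 and at 21.2%, 22.3%, 23.9% and 25.8% in replicate 2. Ranked in set B, which shares no IgG library with H3K27ac, the groups lay between 23% and 24.5% with no order. The strongest 5% of FLI1 starts in set A had H3K27ac at 22.7% and 25.1%, close to FLI1 starts as a whole. In set A the median FLI1 percentile of fold was slightly higher at starts with both than with FLI1 only, 78.0 against 75.5 in replicate 1 and 79.0 against 76.1 in replicate 2. In set B it was 82.7 at starts with both and 82.6 with FLI1 only in replicate 1, and 76.5 against 76.8 in replicate 2. H3K27ac ranks did not separate the classes either: the median percentile was 66.9 and 74.8 at starts with both and 64.6 and 75 at starts with H3K27ac only.

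Base composition and promoter layout moved with both. Of the starts with both, 86.0% were CpG-rich (GC of at least 50% and observed over expected CpG of at least 0.6 within 500 bp), as were 83.6% with FLI1 only, 81.8% with H3K27ac only and 35.6% of starts with no peak in any list. Among CpG-rich starts H3K27ac was at 23.8% with FLI1 and 8.35% without it, and among the others at 20.6% and 1.4%. A start on the opposite strand within 1 kb, here called a 2-way start, was found at 34.5% of starts with both, 23.3% with FLI1 only, 18.5% with H3K27ac only and 13.4% of all starts. H3K27ac was at 31% of 2-way starts with FLI1 and 13.1% of those without, against 20.6% and 3.81% of 1-way starts. The higher share beside FLI1 was therefore present in all 4 of these groups. A 2-way start shares its window with its partner, so such pairs are not separate observations.

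FLI1 of set B was present in both lists at 94.8% of the 1700 starts with FLI1 and H3K27ac, against 44.4% of all starts. It was present at 91.7% of starts with FLI1 only. At the 276 starts with H3K27ac and no set A FLI1 in either list, set B FLI1 replicates 1 and 2 had a peak at 63.0% and 47.1%, against 12.5% and 9.54% of starts with no peak in any set A list. Their set B peaks were modest, with a median percentile of 47.2 and 43.7 in the lists. H3K27ac starts without set A FLI1 thus often had a FLI1 peak of modest rank in set B.

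H3K27me3, the Polycomb mark, was in both of its lists at 9.47% of all starts and at 0 of the 1700 starts with both, which allows a share of up to 0.176%. It was also at 0 of the 556 starts with H3K27ac only, which allows up to 0.540%. Both are 95% limits that take starts as independent, although 2-way starts share a window. FLI1-only starts had it at 40 of 5596 (0.715%), and all 40 were among the 3909 with H3K27ac in 0 lists. Starts with no peak in any set A list had it at 17.4%. H3K9me3, a mark of heterochromatin, was in both of its lists at 1.39% of all starts, 0.118% of those with both (2 starts), 0.697% with FLI1 only (39), 0.180% with H3K27ac only (1) and 1.95% with neither (236).

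Motifs were counted on both strands between 250 bases before and 50 bases after each start. The 8-base ETS motif was present at 5.11% of all starts, 14.7% of starts with both, 14.0% of FLI1-only starts with H3K27ac in 1 list and 10.1% of those with it in 0. It was found at 1 of 276 starts with H3K27ac and FLI1 in 0 lists (0.362%), against 0.835% of starts with no peak in any list. A count of 1 is too small to rank these shares, and both groups were picked for having no set A FLI1 peak. Of the other motifs searched, 4 were more frequent at those 276 starts than at starts with both. AAGATGGCG, which resembles the YY1 motif, was at 7.61% of those 276 (21 starts), against 4.18% with both and 1.88% of all. TGACGTCA, the cAMP response element, was at 6.16% (17 starts) against 3% and 2.29%. CTCGCGAGA, which resembles the ZBTB33 motif, was at 3.99% (11 starts) against 2.47% and 0.836%. CACGTG, the E-box, was at 10.5% against 9% and 8.35%. The reverse held for CCAAT, at 31.9% of the 276 against 37.6% with both and 35.9% of all, and for GCGCATGCG, which resembles the NRF1 motif, at 6 of the 276 starts against 4.76% and 2.36%. GGGCGG, the GC box, was at 63.0% of the 276 and 63.2% of starts with both. None of these motifs contains another, and a match is not a bound site. TATAAA was at 5.94% of starts with both, 6.18% with FLI1 only and 15.0% of starts with no peak.

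Runs of 4 or more GGAA or TTCC units were rare beside FLI1 summits at starts, with or without H3K27ac. Within 250 bp of the FLI1 summit of replicate 1, such a run was found at 1 of 1700 starts with both (0.0588%) and at 26 of 5596 with FLI1 only (0.465%). Of those 26, 23 were among the starts with H3K27ac in 0 lists, as were 3909 of all 5596 FLI1-only starts. These counts are small and were not tested. Replicate 2 gave 1 and 22.

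The 8-base ETS motif lay beside FLI1 summits rather than under them. At starts with both, the FLI1 summits of replicates 1 and 2 had 320 and 314 motifs within 500 bp, and the median distance was 170 and 158 bp. Only 3.75% and 3.50% of these motifs were within 50 bp of the summit, and 77.5% and 79.0% were 50 to 250 bp away. FLI1-only starts showed the same spacing, with medians of 163 and 157 bp. Set B was alike, with medians of 140.5 and 138 bp at starts with both and 5.97% and 7.35% within 50 bp. In all 4 lists the 50-bp step nearest the summit held the lowest density within 200 bp. As a base line, 3.39% of all starts had the motif within 50 bp of the start itself, while only 0.882% and 0.824% of FLI1 summits at starts with both did. Where this 8-base motif was present, a summit thus lay to its side more often than on it, and offsets below are to be read on that scale. The motifs were counted around 1357 and 1364 summits, so most summits had none. The GGAA core, frequent by length alone, was within 50 bp of the summit at 71.5% and 70.9% of starts with both.

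**Figure D2:**
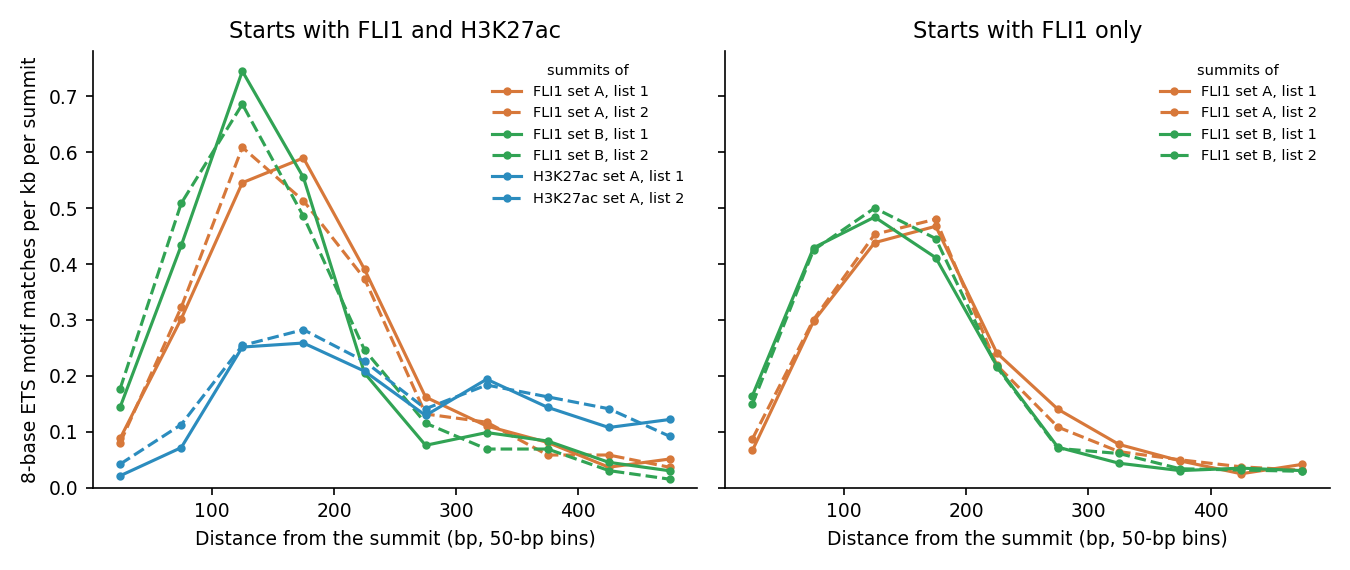
Density of the 8-base ETS motif (matches per kb per summit, vertical axes) against distance from the summit (bp, in 50-bp steps) at starts with FLI1 and H3K27ac (left) and with FLI1 only (right), 1 line per list. The FLI1 lines are low next to the summit and highest between 100 and 200 bp, and the H3K27ac lines are lower and broader.

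Distances from the motif itself were taken where possible. At the starts with both whose FLI1 peak held exactly 1 motif, which were 211 peaks in replicate 1 and 199 in replicate 2, the FLI1 summit was a median of 172 and 155 bp from the motif. The H3K27ac summit nearest the FLI1 summit was a median of 335 and 359 bp from it. H3K27ac and FLI1 summits lay on the same side of the motif at 62.1% and 65.8% of these peaks. The motif had to lie inside the FLI1 peak and the H3K27ac summit was chosen by its distance from FLI1, so these values are a description and not a comparison.

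Measured from the FLI1 summit, H3K27ac summits fell into a near and a far group. The FLI1 summit nearest the start and the H3K27ac summit nearest to it were taken at each of the 1700 starts. Their median distance was 382 bp in replicate 1 and 339 bp in replicate 2, and the 25th and 75th percentiles were 82.0 and 727 bp in replicate 1 and 70.0 and 658 bp in replicate 2. At 27.8% and 28.8% of starts the summits were within 100 bp. Only 5.88% in replicate 1 were 100 to 200 bp apart, 8.24% were 200 to 300 bp and 10.6% were 300 to 400 bp. Crossed replicate numbers, with no shared IgG library, gave 30.1% and 27.2% within 100 bp and medians of 337.5 and 381 bp. Set B FLI1 summits gave 24.0% to 25.8% within 100 bp and medians of 367 to 392 bp. The near group was therefore also seen with FLI1 libraries called against other controls.

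At 1-way starts the far group lay mostly downstream of the FLI1 summit. Over all starts, H3K27ac was over 100 bp downstream of FLI1 at 47.3% and 44.8% of starts and over 100 bp upstream at 24.9% and 26.4%. At 1-way starts these shares were 53.6% and 49.6% downstream against 19.3% and 22.3% upstream. At 2-way starts the downstream and upstream shares were near equal, 35.3% and 35.4% in replicate 1 and 35.8% and 34.2% in replicate 2. A pair counted from both of its starts has its sides exchanged between them. The FLI1 summit itself was spread around the start, with a 10th percentile of -356 bp and a 90th percentile of 411 bp in replicate 1. Measured from the start, the nearest H3K27ac summit was downstream at 67.7% and 65.2% of starts with both and at 75.5% of starts with H3K27ac only in each replicate. The classes differ in their share of 2-way starts. Among 1-way starts alone the values were 74.1% and 70.3% with both and 80.6% and 79.5% with H3K27ac only.

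**Figure D3:**
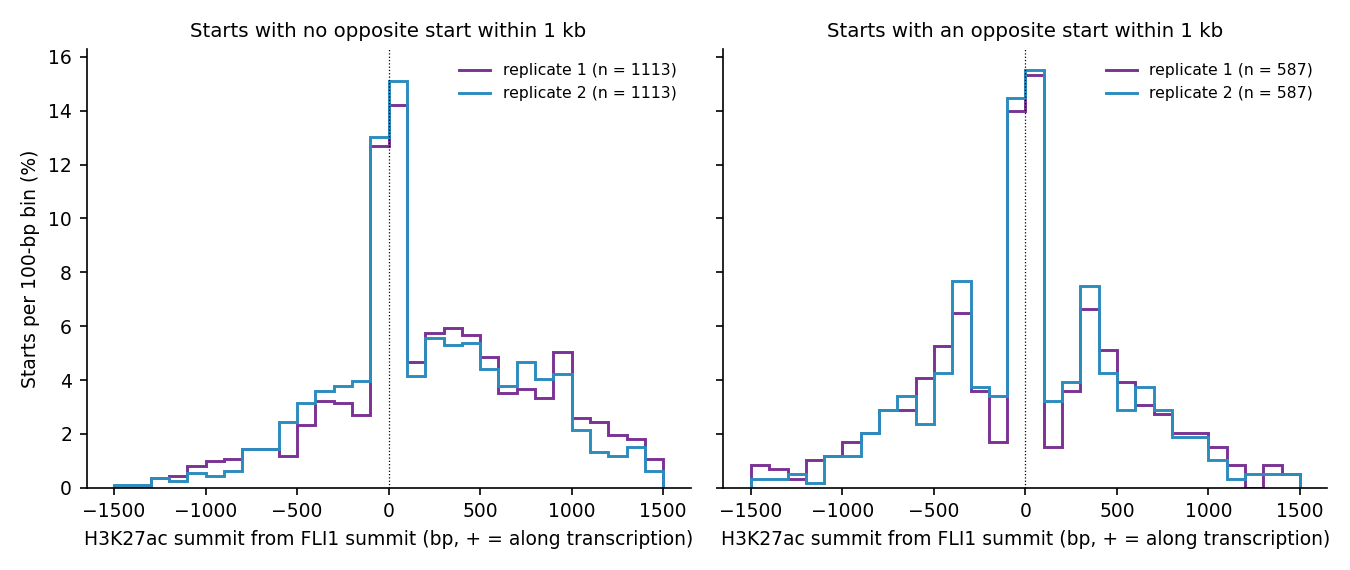
Offset of the nearest H3K27ac summit from the FLI1 summit (bp, positive along transcription) as percent of starts per 100-bp bin, for 1113 starts without (left) and 587 with (right) an opposite start within 1 kb; 1 line per replicate. Both panels have a peak within 100 bp of 0 and a dip beside it, and the left panel has more starts on the positive side.

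The near group differed between replicates. The FLI1 summits of replicates 1 and 2 were a median of 33 bp apart and the H3K27ac summits a median of 253 bp. These distances are not like measures of repeatability. The FLI1 summit was the one nearest the start, but the H3K27ac summit was the one nearest the FLI1 summit of its replicate. Many H3K27ac regions also have several summits, and no FLI1 region has. Only 219 starts were within 100 bp in both replicates, 524 were so in 1, and 957 were over 100 bp in both. Of the starts near in replicate 1, 46.3% were near in replicate 2, against 22% of the rest. Of the 957 starts far in both, 777 (81.2%) had the same side in both, with 531 downstream and 246 upstream. Among 1-way starts alone these were 398 and 111. The FLI1 summit lay inside an H3K27ac peak at 42.2% and 42.6% of starts, in both replicates at 439 starts and in neither at 697.

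The 219 starts near in both had stronger H3K27ac and not stronger FLI1. Their median H3K27ac percentile was 82.9 and 87.3, against 62.0 and 69.6 at the 957 starts far in both. Their median FLI1 percentile was 74.3 and 74.8, against 79.1 and 79.3. H3K27ac peaks were wider there (median 673 and 695 bp against 552 and 536 bp) and FLI1 peaks narrower (697 and 606 bp against 857 and 788 bp). The motif was at 16% and 13.2% of these starts. Each of these measures comes from the lists that set the summits and none was tested.

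The shortest and longest offsets had named examples. COA6, which encodes a cytochrome c oxidase assembly factor, had its H3K27ac summit 6 bp upstream of FLI1 in replicate 1 and at 0 bp in replicate 2. FLI1 folds there were 53.1 and 64.3, and H3K27ac folds 5.50 and 8.84. ZNF219, a zinc finger gene, had offsets of -4 and 10 bp, and FKBP3, a prolyl isomerase gene, of -1 and 11 bp. The FLI1 summits at ZNF219 lay 847 and 444 bp downstream of the start, so its replicates did not mark the same place. At FKBP3 they lay 957 and 940 bp downstream, near the edge of the window. At the other end, TMEM38A, a cation channel gene, had offsets of 2225 and 2268 bp with FLI1 folds of 133 and 148. ID2, which encodes a helix-loop-helix inhibitor and is on the list of activated EWSR1::FLI1 targets, had 1858 and 2091 bp with FLI1 folds of 30.7 and 24.0. ARHGAP35, printed above, had 1855 and 1915 bp. All 3 of the long offsets were downstream, with FLI1 before the start of the gene.

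Farther out, H3K27ac was more frequent around FLI1-only starts than around starts with no peak. Of the 3909 starts with FLI1 and H3K27ac in 0 lists, 10.2% and 16.4% had an H3K27ac peak of replicates 1 and 2 within 5 kb, and 42.8% and 55.1% within 50 kb. The 1687 FLI1-only starts with H3K27ac in 1 list, which by definition have it within 1 kb in that list, had 41.4% and 81.4% within 5 kb. Starts with no peak in any list had 2.55% and 3.93% within 5 kb and 23.1% and 30.8% within 50 kb.

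The highest-ranked start of the class with both was FADS2, a fatty acid desaturase gene whose window it shares with FEN1, a flap endonuclease of DNA replication, and TMEM258. FLI1 folds there were 44.8 and 59.5, set B gave 65.6 and 26, and H3K27ac folds were 8.89 and 8.97. UHMK1, a protein kinase gene, had FLI1 folds of 73.5 and 110, set B folds of 44.2 and 59.4 and H3K27ac folds of 7.75 and 7.55. The window that CDC45, part of the replicative helicase, shares with UFD1 was ranked by the peaks at UFD1. CDC45 itself had FLI1 at 41.3 and 30.1 (set B 15.0 and 10.5), with H3K27ac at 5.69 and 8.5. H3-3B, which encodes histone H3.3, stood apart: FLI1 was 58.0 and 41.3 in set A but 7.72 and 5.46 in set B, percentiles 45.1 and 16.2 of those lists. CTDNEP1, PCNP, ENSG00000282936 and ACTMAP complete the 8, with H3K27ac folds from 6.91 to 8.82.

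The 8 highest-ranked starts with FLI1 and H3K27ac in 0 lists had set A FLI1 folds of 153 to 267. TRIM41, a ubiquitin ligase gene, had 253 and 267, and in set B 105 and 52.4. GUCY2F, a retinal guanylyl cyclase gene, had 204 and 241, and in set B 34.7 and 47.2. CATSPERD, a gene of the sperm calcium channel whose window holds the start of the mitochondrial protease gene LONP1, had 213 and 222, and in set B 44 and 35.9. MBD3L1, GLYCTK, PGLYRP2, ISY1 and ADGRE3 had 153 to 233 in set A. At PGLYRP2 the summit of replicate 1 lay at -3214 bp from the start, and only the edge of the peak reached the window. They were ranked on FLI1 alone and the starts with both on FLI1 and H3K27ac together, so these FLI1 folds are not a comparison of the classes.

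Among starts with H3K27ac and FLI1 in 0 lists, BTN2A1 ranked first with H3K27ac folds of 7.80 and 9.59. MTO1, which encodes a mitochondrial tRNA-modifying enzyme, had 7.5 and 10.3, and CERS2, a ceramide synthase gene, 7.69 and 8.55. SENP6, a SUMO protease gene, had 9.30 and 7.21. Set B FLI1 had a peak in both lists at BTN2A1 (8.80 and 8.64), CERS2 (3.83 and 3.89) and FBXW4 (12.3 and 5.59). It had none at MTO1, ZNF282, SENP6, ZNF532 and ZNF746.

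**Figure D4:**
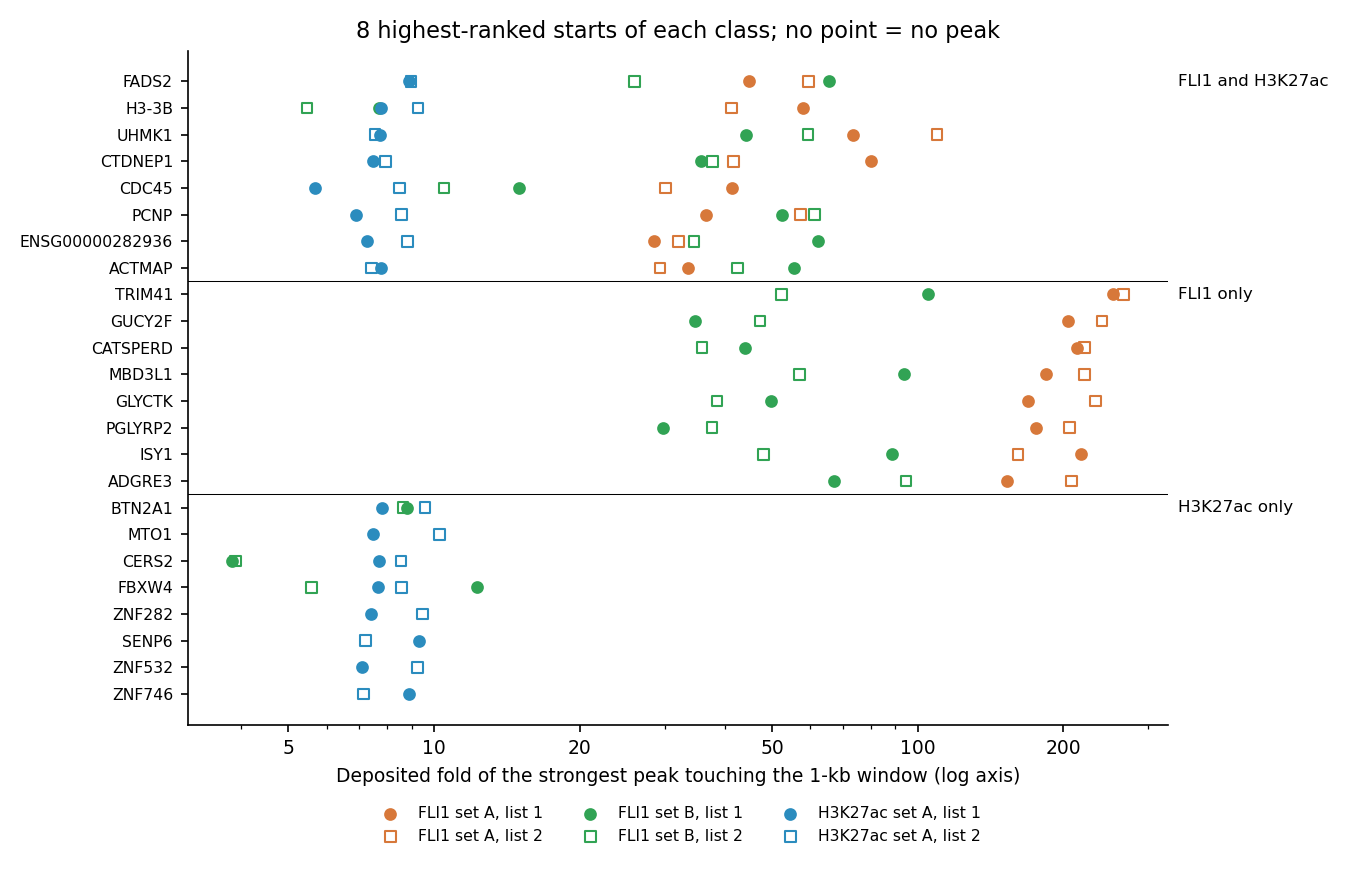
Deposited fold over IgG (log axis) of the strongest peak touching the window, in each of 6 lists, at the 8 highest-ranked starts of 3 classes. H3K27ac folds lie between 5.69 and 10.3 at starts that have it, whether FLI1 is present or not, and a missing point means no peak.

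The gene lists below were chosen with earlier results of these data known, and none was tested. Across all starts FLI1 was at 36.5%, H3K27ac at 11.3% and both at 8.51%, and 23.3% of FLI1 starts had H3K27ac. Activated targets of EWSR1::FLI1 had FLI1 at 25 of 34 starts (73.5%), but H3K27ac was at 6 of those 25 (24.0%), close to the share over all FLI1 starts. The 6 were JAK1, ID2, STEAP1, SOX6, FOXM1 and AURKA. STEAP1, a metalloreductase gene, had FLI1 folds of 43.7 and 27.2 and H3K27ac folds of 6.26 and 4.46. FOXM1, a transcription factor of the cell cycle, had FLI1 at 8.54 and 7.06 and H3K27ac at 6.62 and 5.52. NR0B1, NKX2-2 and CCND1, long-known fusion targets, had FLI1 and H3K27ac in 0 lists. FLI1 folds were 36.8 and 48.0 at NR0B1, 6.48 and 10.2 at NKX2-2 and 27.1 and 22.2 at CCND1. The FLI1 percentiles at CCND1 were 94.8 and 93.3 in set A but 60.5 and 8.30 in set B. Set B percentiles were 92.4 and 78.3 at NR0B1 and 53.8 and 72.3 at NKX2-2. Repressed targets had FLI1 at 6 of 18 starts and H3K27ac at 0, and 4 of the 18 had H3K27me3 in both lists.

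Immediate early and stress genes had the highest share of FLI1 starts of all the lists, 30 of 37 (81.1%), and 24 of those 30 had H3K27ac in 0 lists, as did 3909 of all 7296 FLI1 starts (53.6%). EGR1, JUN and FOS, which encode transcription factors induced within minutes of stimulation, were among the 24. FLI1 folds were 74.0 and 82.1 at EGR1, 13.9 and 19.8 at JUN and 12.3 and 17.4 at FOS. The 5 with both were HSPA8, HSP90AA1, DDIT3, BTG1 and JUND. HSPA8, a constitutive heat-shock chaperone, had FLI1 at 12.1 and 15.9 and H3K27ac at 8.92 and 8.47. Replication-dependent histone genes were similar, with FLI1 at 47 of 69 (68.1%) and H3K27ac at 3 of those 47 (6.38%).

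Proteasome subunits were at the other end. FLI1 was at 32 of 48 starts (66.7%) and H3K27ac at 16 of those 32, as at PSMB1 (FLI1 46.2 and 47.5, H3K27ac 6.87 and 4.50) and PSMD14 (FLI1 5.97 and 9.69, H3K27ac 5.28 and 7.55). Mitochondrial ribosomal proteins had both at 19 of 78 starts and H3K27ac only at 11 more. Of these 11, 9 had FLI1 in 1 set A list and 2 in 0, such as MRPL14 with H3K27ac at 4.18 and 6.11. NADH dehydrogenase subunits, of the first complex of the respiratory chain, had both at 6 of 37 and H3K27ac only at 7 (4 of them with FLI1 in 1 list), against 2.78% of all starts in that class. Cytosolic ribosomal proteins differed, with both at 14 of 79 and H3K27ac only at 1. Translation initiation factors had both at 12 of 55 and replication and cell cycle genes at 9 of 45, where CDK1 was the only one with H3K27ac only.

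In the list of H3K27 acetylation machinery and related chromatin genes, 14 of 22 had FLI1 and 3 of these H3K27ac. The acetyltransferase EP300 had FLI1 at 15.2 and 16.4 and H3K27ac at 5.65 and 6.14. The bromodomain reader BRD2 had 19.0 and 20.4 with 4.97 and 6.20, and KDM1A, a histone H3K4 demethylase that does not act on acetylation, 11.1 and 5.53 with 6.89 and 4.77. CREBBP had no peak in any of the 4 set A lists. Among 31 ETS and FET genes, both were at ETV3, GABPA, GABPB1 and EWSR1. GABPA and GABPB1 encode the subunits of GABP, an ETS factor of housekeeping promoters, and had FLI1 at 34.7 and 49.9 and at 27.9 and 39.8. EWSR1, the fusion partner whose promoter drives the fusion, had FLI1 at 25 and 27.7 and H3K27ac at 6 and 6.87. Its FLI1 percentiles were 94.0 and 95.3 in set A but 27.1 and 74.5 in set B. ELF4 was the only one with H3K27ac only. FLI1 and ERG had no peak in any FLI1 or H3K27ac list and H3K27me3 in both of its lists. Subunits of the BAF chromatin remodeller had FLI1 at 19 of 27 and H3K27ac at 4 of these, namely BRD9, ARID2, SMARCE1 and SMARCD2.

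Few olfactory receptors, collagens and keratins had either. Olfactory receptors had FLI1 at 4 of 415 starts and H3K27ac at 0. Collagens had FLI1 at 4 of 44 and H3K27ac at 1. Keratins had FLI1 at 1 of 55 and H3K27ac at 2, KRT8 and KRT18, which share their values (5.95 and 6.21) and had no set A FLI1. Solute carriers had FLI1 at 96 of 340 (28.2%) and both at 14. FLI1 was at 46.2% of 39 HOX genes, 52.0% of 508 zinc finger genes, 42.3% of 26 Polycomb genes and 37.1% of 35 mesenchymal and adhesion genes, against 36.5% of all starts. HOX genes had both at 5 starts, zinc finger genes at 43, and Polycomb genes and mesenchymal and adhesion genes at 2 each. Ewing markers had FLI1 at 7 of 9 starts and H3K27ac at 1 (11.1%), near the 11.3% of all starts. STEAP1, BCL11B, PRKCB, NKX2-2, LIPI and NR0B1 are also on the list of activated targets. The markers are therefore no separate check of the line. CD99 and TCF4 had no peak in any of the 4 set A lists. Blood markers had 0 of 8 and liver markers 0 of 4 for each antibody, and epithelial markers had H3K27ac at 2 of 7.

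**Figure D5:**
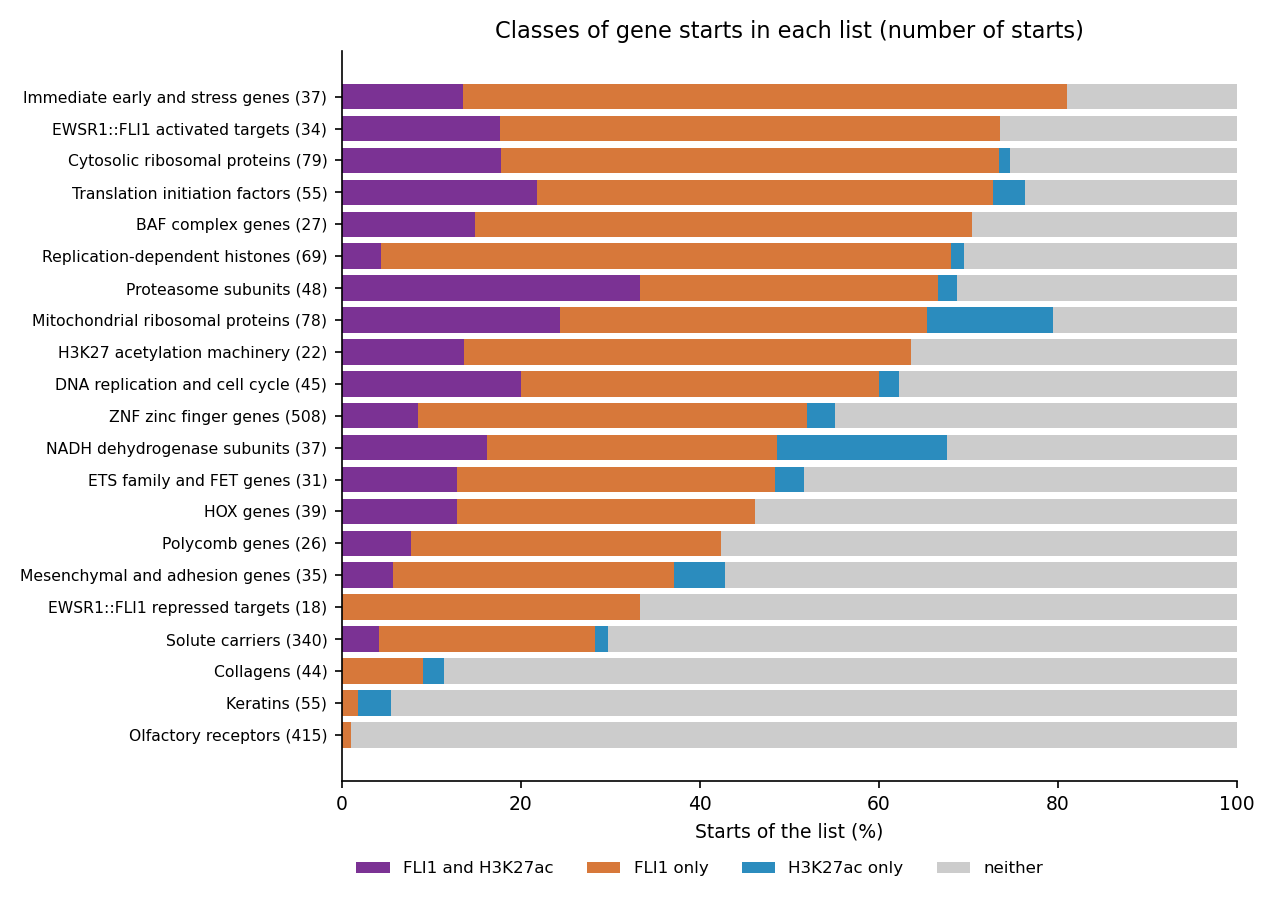
Percent of the starts in each of 21 gene lists that fall in the 4 classes (horizontal axis, stacked to 100%), with the number of starts in brackets. Immediate early genes have the most FLI1, proteasome subunits the most of both, and NADH dehydrogenase subunits the most H3K27ac only.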

How the data were processed

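CUT&RUN peak lists of TC-32 cells were used as deposited, 1 list per library, and each was called against the IgG library of its set and number with duplicates removed, per the names in the files. Per the submitters' processing notes the tools were cutadapt 4.4, Bowtie2, Picard 2.17.11 and MACS2 2.1.1, with the build hg38, and the settings are not given in the sources used here. Of the deposited columns, the fold (a ratio of peak signal to IgG), the −log10 p and −log10 q and the summit position were used, and the deposited integer score was used nowhere. Fold depends on each library's depth, which is unknown here because no read totals were used. Folds were therefore ranked within a list as percentiles, and lists are to be compared by these ranks. Raw folds printed side by side from several lists describe each list and are not a comparison of size. H3K27ac lists give several summits for 2312 and 3694 regions, and all were kept.

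Starts came from GENCODE release 44. A peak was present with at least 1 shared base. Of several peaks at a start, the strongest gave the fold and the summit nearest the start gave the offset. The named genes were the 8 starts of each class with the highest mean percentile, and the 3 with the shortest and longest offsets, with genes that share a window counted once under the first symbol and ranked by the highest of them. The printed stretches with the 8-base motif and the motif distances were added after the data were seen. The members, gene lists and comparisons were chosen with earlier results of these data known. No test was run, and spread is given as the value in each list. The counting was tested on simulated starts. Alternatives covered the window, replicate rule, peak threshold, list length, start definition, overlapping windows and each list left out. Python 3.11.15, pandas 2.3.3, numpy 2.4.6 and pysam 0.24.0 were used. H3K27me3 and H3K9me3 lists of set B were read only for presence at starts, and reads and IgG libraries were not analysed here.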

Additional observations from a re-analysis of the deposited data

How the results depend on the processing

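FLI1 starts had H3K27ac more often than other starts under all 14 alternatives that give both shares, with a ratio between 3.10 (equal list lengths) and 7.63 (either replicate). The levels themselves moved. A window of 500 bp gave 1070 starts with both, 363 with H3K27ac only, and 15.6% against 2.77%. Presence in either replicate gave 3950 with both and 44.4% against 5.82%. Peaks with −log10 q of at least 5 gave 372 with both, 154 with H3K27ac only and 5.53% against 1.16%. The 10219 most significant regions of each list gave 719 with both, 2774 with FLI1 only, 1094 with H3K27ac only and 6.64% of starts without FLI1. At that length, starts with H3K27ac only outnumbered starts with both. Any transcript start gave 5.65% of starts without FLI1, set B FLI1 3.07%, and FLI1 in 0 of 4 lists 0.981%. Leaving out 1 list gave 1827 to 2903 with both, 403 to 1021 with H3K27ac only, and 22.7% to 39.8% against 3.41% to 8.06%. The upper ends came without H3K27ac replicate 1.

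Set B FLI1 at starts with both was 96.3% (either replicate), 93.6% (summit in the window), 98.5% (equal lengths) and 92.0% to 94.8% with 1 list left out. The median summit distance of 360.5 bp became 393.75 bp (−log10 q of at least 5), 234.75 bp (500 bp), 435.5 bp (2 kb) and 446.5 bp (H3K27ac peak centres), and the summits inside H3K27ac went from 42.4% to 51.3%, 55.9% and 36.4% in the first 3 of these and 37.3% with set B FLI1. Of 111 alternative values, 74 stayed within 1.5 times the count or inside the spread between lists. FLI1 in 0 of 4 lists, set B summits and autosomes alone were chosen after seeing the data.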
